A study of Sthenoteuthis oualaniensis with 24 samples.

Results

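The purpleback flying squid *Sthenoteuthis oualaniensis* (SA) has a larger medium form (MF) and a smaller dwarf form (DF), and the intestine and stomach of immature MF SA were compared here. The groups were the intestine (MUI) and the stomach (MUS) of immature MF, with 3 libraries each. The study took both tissues from 3 immature SAs, at maturity stages I and II, caught in the South China Sea, and no treatment was given. Age and sex are not used here. The members were all unigenes (transcripts assembled from the reads) whose mean over these 6 libraries reached 0.5 FPKM. FPKM is a fragment count scaled by the length of the unigene and the mapped reads of the library. Of the 66837 unigenes listed for the MF, 47792 (71.5%) passed and 19045 did not, and 992 of the latter were listed at 0 in all 6 libraries. The libraries of mature MF (MDI and MDS) and of immature DF (DUI and DUS), with 3 libraries per group, were used to show where the immature MF differed. The question was how far the expression of the intestine and that of the stomach stood apart before maturation, and whether the same unigenes did so after it.

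In squids, the stomach is a muscular sac in which food is ground and mixed with enzymes from the digestive gland. The caecum and the digestive gland take up most nutrients, while the intestine takes up a part and carries mucus-bound waste towards the anus. Digestive enzymes, transporters, mucus proteins and muscle proteins are the gene groups that such tissues are known for. The files pair no unigene ID with a gene name or a sequence. These groups could therefore not be read, the tissue labels could not be checked against marker genes, and unigenes are given by ID.

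The 10 leading unigenes of the stomach stood further from the intestine than the 10 leading ones of the intestine did from the stomach. With FPKM as deposited, this order did not hold over a wider set. The 10 most abundant unigenes of the stomach took 13.9% to 14.1% of the summed FPKM in each MUS library, and 7 of them were at least 2-fold and 5 at least 16-fold higher than in the intestine. The 10 most abundant unigenes of the intestine took 7.40% to 7.42% in each MUI library, with 2 at least 2-fold and 0 at least 16-fold higher than in the stomach. All 10 of the leading intestine unigenes were among the 100 most abundant unigenes of the stomach, while 5 of the 10 leading stomach unigenes were among the 100 of the intestine and the lowest of them ranked 2036 there. Of the 100 most abundant unigenes of each tissue, 59 (59.0% of each list) were shared, and of the 1000 most abundant, 666 (66.6%). Of the 66 unigenes with at least 1000 FPKM in the stomach, the median level in the intestine was 73.1% of that in the stomach. Of the 111 with at least 1000 FPKM in the intestine, the median level in the stomach was 46.4%. In the mature MF, 63 of 100 and 693 of 1000 were shared. The 10 most abundant unigenes took up to 10.1% in MDI and up to 12.4% in MDS.

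The unigene with the highest level in the stomach was also the one with the largest difference in FPKM. For comp71996_c1_seq1_2, the values were 11743, 12071 and 12127 FPKM in MUS_1 to MUS_3 and 51.9, 69.0 and 71.0 FPKM in MUI_1 to MUI_3. The tissues lay far apart with no overlap, and MUI_1 was the lowest of the intestine libraries. On the log2(FPKM + 0.5) scale, its level in the intestine fell by 7.55 (SE 0.12) relative to the stomach, a ratio of group means of 186-fold. At maturity, it was at 2380 to 2464 FPKM in MDS and at 5.34 to 15.0 FPKM in MDI, so that its level was lower in both tissues and the tissues were still apart. The other stomach unigene named was comp32608_c0_seq1_2, with the largest ratio. It was at 332, 357 and 355 FPKM in MUS, and at 1.65e-09, 6.50e-08 and 0.177 FPKM in MUI. No fold is given for it, because values this small stand for no reads or nearly none. In MDI and MDS, the highest of the 6 values was 0.119 FPKM, so this unigene was abundant in the immature stomach and in no other group of the MF.

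Of the unigenes higher in the intestine, comp55794_c0_seq1_2 had the largest difference in FPKM. It was at 6559, 6534 and 6501 FPKM in MUI and at 905, 925 and 944 FPKM in MUS, a ratio of group means of 7.06-fold. By level, this unigene ranked 2 among those of the intestine and 75 among those of the stomach. In the mature MF, it was at 3.29 to 4.60 FPKM in MDI and 4.61 to 10.6 FPKM in MDS. Here the order of the tissues was the other way, at a level far below that of the immature stage in both. The largest ratio belonged to comp67002_c5_seq1_2, at 847, 856 and 865 FPKM in MUI and at 0.159, 0.193 and 0.954 FPKM in MUS. The stomach values are too low for the ratio to be read closely, since the log2 difference was 9.94 with 0.5 FPKM added to each value, 10.96 with 0.1 FPKM and 9.26 with 1 FPKM. At maturity, it was at 111 to 127 FPKM in MDI and 0.207 to 1.96 FPKM in MDS, with the same order of the tissues.

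**Figure D1:**
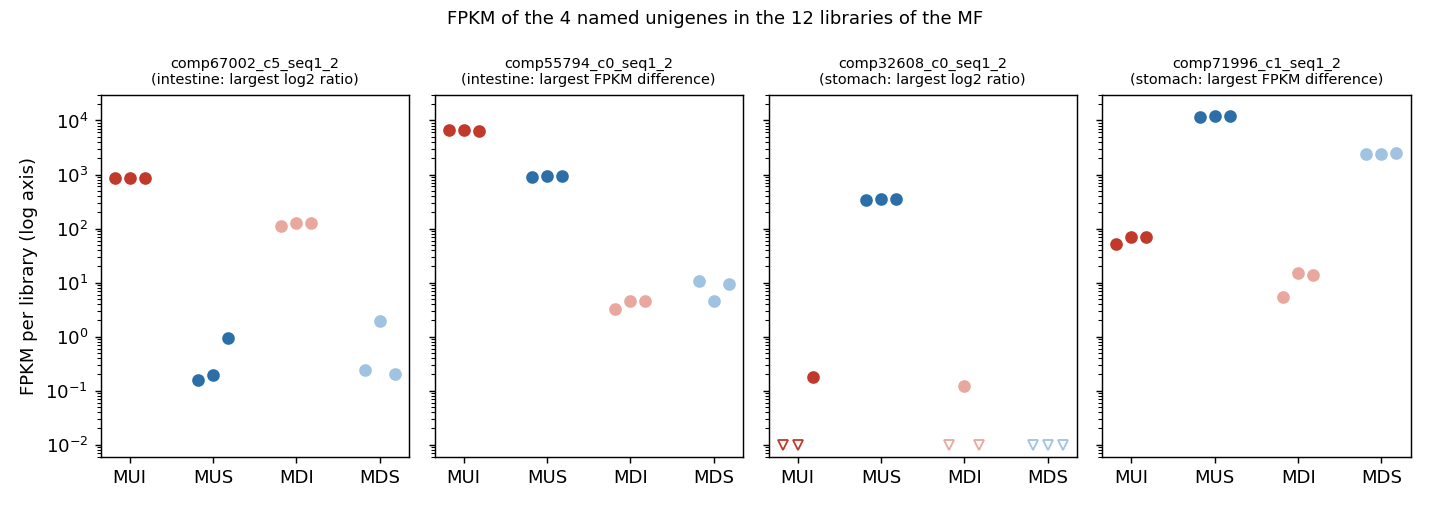
FPKM (log axis) of the 4 named unigenes in each of the 12 MF libraries, with 1 point per library in MUI and MUS (immature intestine and stomach) and MDI and MDS (mature intestine and stomach); open triangles at the bottom mark values under 0.01 FPKM. The 3 libraries of MUI and those of MUS do not overlap in any panel, and comp32608_c0_seq1_2 is abundant in MUS alone.

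The spread between libraries of a tissue was small, and bears on every test below. The coefficient of variation had a median of 1.47% over the 397 unigenes that reached 200 FPKM in MUI, and of 1.43% over the 380 in MUS. The squared difference between replicates 2 and 3, divided by their sum, was on average 0.344 to 0.387 FPKM per unigene in the class of 0.5 to 2 FPKM, and 0.236 to 0.239 FPKM in the class from 200 FPKM upwards. This index stays level with abundance when the variance is in proportion to the level, as in the counting of reads, and an added coefficient of variation of 10% would have brought it to at least 8.70 FPKM in the highest class. Between replicate 1 and the others, it was 0.347 to 0.517 FPKM in that class. Replicates 2 and 3 of each tissue differed less than the other pairs in that class, and were counted as 1 sample in a second fit. The study gives the clean reads of the MF as a whole, but mapped reads per library and unigene lengths were not used here. The size of the counting error itself was therefore not set beside these values. From the ratios of low values, the depth of MUI_1 and MUS_1 was 0.859 times that of replicate 2 of the same tissue. The files hold no counts. Although the study describes 3 SAs per group, p-values here measure the spread between these libraries, which may be technical, and whether they hold for other SAs was not tested. The summed FPKM was 715241 to 718169 in MUI and 612873 to 615241 in MUS.

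More unigenes were higher in the intestine than in the stomach, but the size of this excess followed the scaling. At an adjusted p of 0.05 from limma and a change of at least 2-fold, 16931 of 47792 unigenes (35.4%) were called, of which 11910 were higher in the intestine (24.9% of those tested) and 5021 in the stomach (10.5%). The intestine took 70.3% of the calls with FPKM as deposited, 57.6% with libraries scaled by the median of ratios (9203 and 6763 unigenes) and 51.9% after quantile normalization (8334 and 7733). The median log2 ratio of intestine to stomach over all unigenes tested was 0.37 as deposited, 0.07 with the median of ratios and -0.04 after quantile normalization. With replicates 2 and 3 of each tissue counted as 1 sample, 15938 were called, and with the 3 libraries of MUS counted as 1 sample, 11960. The latter fit takes its spread from the MUI libraries alone and assumes that the lone sample varies like them. The 6 libraries did not overlap between tissues for 28980 unigenes (60.6%). Changes in the share of a cell type and changes in its RNA per cell cannot be told apart in such tissue samples.

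The share of unigenes that differed by size alone hardly moved with abundance. At least 2-fold differences in group means were found for 42.1% of unigenes in the class of 0.5 to 2 FPKM. The shares were 40.2% in that of 2 to 10 FPKM, 36.7% in that of 10 to 50 FPKM and 42.3% from 50 FPKM upwards, against 40.8% of all unigenes tested. At 50 FPKM or more, 654 of 1545 differed, 414 higher in the intestine and 240 in the stomach. With the median of ratios, the larger group changed sides in this class, with 257 and 317 of 574 that differed. Of the 7755 unigenes at 10 FPKM or more, 283 were under 0.5 FPKM in the mean of 1 tissue. Of all unigenes tested, 8973 were under 0.5 FPKM in the stomach and 4526 in the intestine, so these passed the minimum through the other tissue. Their tissue means had to be unequal, though not by 2-fold.

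**Figure D2:**
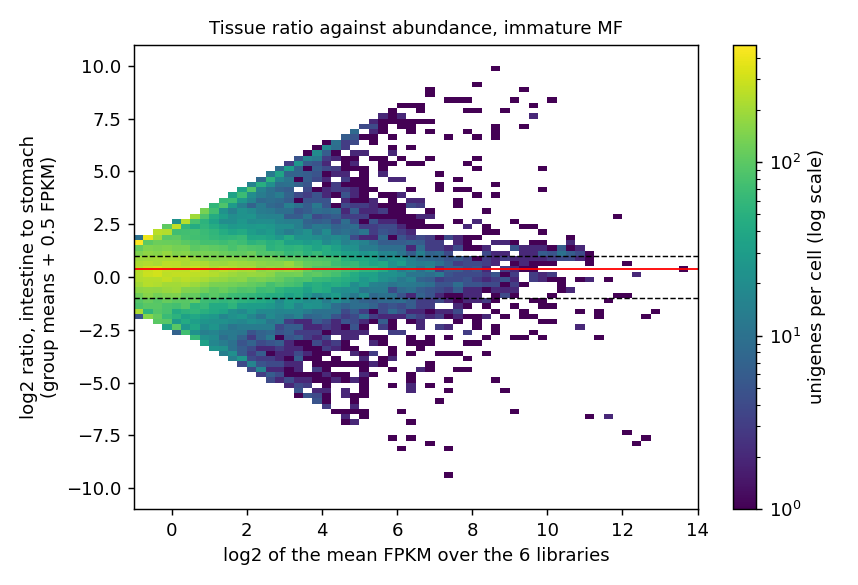
Log2 ratio of the group means of intestine to stomach, with 0.5 FPKM added, against the log2 mean FPKM of the 6 libraries for the 47792 unigenes tested, with the colour of a cell giving the number of unigenes on a log scale. The dashed lines mark 2-fold and the red line the median of 0.37, and the 7 unigenes of at least 1000 FPKM in the stomach that were under 2% of it in the intestine lie at the lower right.

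Large differences were more frequent towards the intestine, both with FPKM as deposited and with the median of ratios. Their counts are not given for quantile normalization. Among the 7755 unigenes of at least 10 FPKM, 354 were at least 16-fold higher in the intestine and 130 in the stomach, and 326 and 147 with the median of ratios. At least 64-fold differences were found for 130 and 30, and for 103 and 35 with that scaling. Of the 354, 224 (63.3%) were under 0.5 FPKM in the stomach, and of the 130, 59 (45.4%) were under 0.5 FPKM in the intestine, so the size of these ratios was set by the added 0.5 FPKM. The other 130 and 71 had at least 0.5 FPKM in both tissues. The highest levels in these sets were on the side of the stomach. The 354 unigenes had a median of 39.4 FPKM in the intestine and a highest mean of 2343 FPKM, and together took 6.01% to 6.03% of the summed FPKM in MUI and 0.0829% to 0.102% in MUS. The 130 unigenes had a median of 48.9 FPKM and a highest mean of 11981 FPKM in the stomach, and took 9.66% to 9.77% in MUS and 0.0730% to 0.0886% in MUI. These sets were chosen by the same contrast, so their shares are a description. The 11910 unigenes called higher in the intestine took 41.4% to 41.5% of the summed FPKM in MUI and 13.4% to 13.5% in MUS. The 5021 called higher in the stomach took 31.6% to 31.8% in MUS and 5.19% to 5.28% in MUI.

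Many abundant unigenes lay in a band of ratios towards the intestine. Among the 159 unigenes with a mean of 500 to 2000 FPKM, 83 (52.2%) were 1.5 to 3 times higher in the intestine, with a median of 2.18-fold and a middle range of 1.94 to 2.39-fold. For a ratio of this size at so small a spread, libraries that do not overlap between tissues follow from the choice. Of the 83, 65 are CL contigs, and near copies among them can share reads. Of the 1545 unigenes at 50 FPKM or more, 696 are CL contigs, and their number among the 159 is not given. The 83 held 18.4% of the summed FPKM of all tested unigenes in MUI and 9.96% in MUS. A further 36 of the 159 were within 1.5-fold, 22 were at least 1.5-fold higher in the stomach and 18 at least 3-fold higher in the intestine. Of the 1360 unigenes at 50 to 500 FPKM, 358 (26.3%) had a ratio in that range, with a middle range of 1.67 to 2.21-fold. In the mature MF, 46 of its 159 unigenes at this level (28.9%) had such a ratio, with a median of 1.69-fold. At that stage, the middle range of the 46 was 1.59 to 1.79-fold. There, 76 of the 83 were again higher in the intestine, with a median of 1.49-fold and a middle range of 1.24 to 1.67-fold. This is not particular to the band. Of 1304 unigenes called higher in the intestine with at least 10 FPKM at both stages, 87.3% had the same direction at maturity. Of the 476 CL contigs among these, 91.6% did. In the immature DF, whose unigenes have other IDs, 10 of 135 unigenes (7.41%) at 500 to 2000 FPKM had a ratio of 1.5 to 3. These folds are on the scale as deposited, where the median log2 ratio of all unigenes was 0.37. The band was seen in the plot of ratio against abundance and its limits were then set, so no test is given. The limits of 1.5 and 3 keep the middle range narrow in any set cut this way.

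A few unigenes abundant in 1 tissue were at a low level in the other. Of the 66 unigenes with at least 1000 FPKM in the stomach, 7 were under 2% of that level in the intestine. These 7 ranged from 1074 to 11981 FPKM in MUS and from 12.1 to 65.2 FPKM in MUI, which was 0.412% to 1.13% of the stomach level. In 6 of them, MUI_1 was the lowest of the 3 intestine libraries. Of the 111 unigenes with at least 1000 FPKM in the intestine, 7 were under 2% of it in the stomach, at 1.98 to 8.41 FPKM or 0.158% to 0.642%. Of the first 7, 6 also reached 1000 FPKM in the mature stomach, and there the intestine was at 0.110% to 0.469%. Of the other 7, 3 also reached 1000 FPKM in the mature intestine, with the stomach at 0.139% to 0.160%.

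Unigenes listed in 1 tissue alone were mostly of low level. In all 3 MUS libraries, 3520 unigenes were listed at 0 while above 0 in all 3 MUI libraries, and 913 the other way. In all, 10126 to 11091 unigenes were listed at 0 per MUS library and 5508 to 6173 per MUI library. From low values, the depth of MUS_2 was put at 0.824 times that of MUI_2, with few ratios at the peak (1.53%), and the part of depth in these counts was not tested. Of the 3520, 1045 had a mean under 0.5 FPKM and 111 reached 10 FPKM, and of the 913, 203 and 11. Levels of at least 1 FPKM in all 3 libraries were reached by 1024 and 246, with a highest value of 124 FPKM in MUI and 133 FPKM in MUS. A value above 0 was not always a sign of reads. In each of the 6 libraries, 5241 to 5379 unigenes had a value above 0 but under 1e-06 FPKM, against 11 to 18 in the libraries of the immature DF. A level of less than 1e-06 FPKM is far below what any whole read could give, so a part of the MF values are estimates and not tallies of reads.

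The kind of unigene ID went with both the tissue ratio and the stage. Of the 66837 IDs, 12572 are contigs of a CL cluster, 25876 end in _1 and 28389 end in _2. The labels and methods do not say what the suffix stands for. Of unigenes ending in _2, 42.7% of 23927 were called between the tissues, against 31.1% of 13086 ending in _1, 24.7% of 10779 CL contigs and 35.4% overall. The order was the same at 50 FPKM or more, where 54.0% of 615, 47.9% of 234 and 30.2% of 696 differed at least 2-fold by size. All 4 unigenes named above end in _2.

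The suffix followed the stage closely. Over the unigenes whose mean in the 12 MF libraries reached 0.5 FPKM, 54.0% of those ending in _1 were at least 2-fold higher in MDI than in MUI and 1.94% lower. Of those ending in _2, 2.41% were higher and 52.0% lower. CL contigs stood at 6.13% higher and 5.96% lower. In the stomach, these numbers were 46.2% and 2.63%, 4.07% and 43.0%, and 8.63% and 7.01%. Unigenes ending in _2 held 37.3% of the summed FPKM in MUI, 41.6% in MUS, 21.6% in MDI and 25.1% in MDS. Those ending in _1 held 16.1%, 18.3%, 36.2% and 33.6%. Of the values above 0 but under 1e-06 FPKM in the 6 immature libraries, 81.1% belonged to unigenes ending in _1 and 0.490% to CL contigs, while 92.4% of those in the 6 mature libraries belonged to unigenes ending in _2. A comparison of tissues within the immature stage does not cross stages, but the share called differed by kind of ID there too. A comparison of the tissue ratio between stages does cross them, so it is given by kind of ID below. The part of the assembly in either comparison was not tested.

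**Figure D3:**
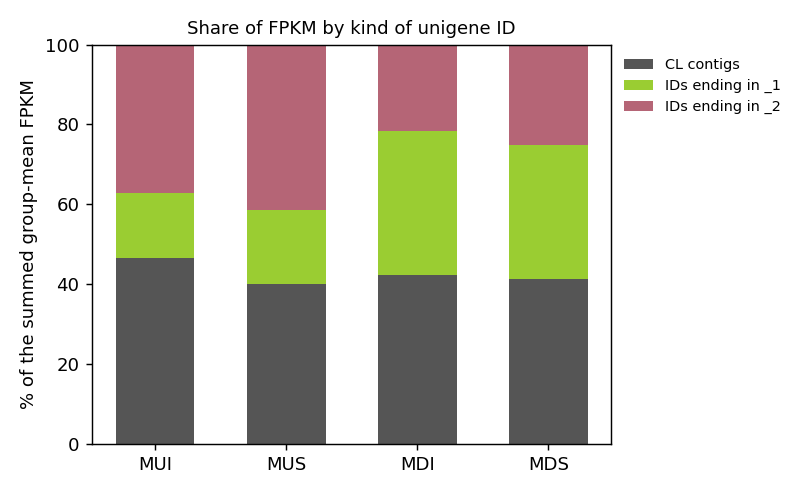
Share (%) of the summed group-mean FPKM held by CL contigs, IDs ending in _1 and IDs ending in _2 in the 4 groups of the MF (MUI and MUS, immature intestine and stomach; MDI and MDS, mature). IDs ending in _2 fall from 37.3% and 41.6% in the immature groups to 21.6% and 25.1% in the mature ones, and those ending in _1 go the other way.

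The tissue ratios of unigenes that share the number before the suffix were not alike. All 9366 numbers listed for more than 1 unigene (such as comp71996_c1) have 1 unigene ending in _1 and 1 ending in _2. Over the 4625 pairs with both members tested, the tissue ratios of the members had a Pearson correlation of -0.01, given as a description across pairs. Both members were called in 581 pairs, in the same direction in 326 and in opposite directions in 255. In all, 261 of 4783 shared numbers or clusters held calls in both directions. The largest cluster, CL1, held 6016 of the 10779 CL contigs tested, and 24.0% of these were called against 25.5% of the other CL contigs. Whether the members of a pair come from the same gene was not tested, because no ID is paired with a sequence. Opposite calls in a pair are therefore not read as copies of the same gene that differ between the tissues. Where unigenes of a cluster or a pair are near copies, they can share reads, which would make the values of single members uncertain.

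The tissue difference of the immature stage was found again in the mature libraries in direction more than in size. Of the 16931 unigenes called in the immature MF, 12363 (73.0%) had the same direction at maturity, 5833 (34.5%) the same direction at 2-fold or more, and 571 (3.37%) the opposite direction at 2-fold or more. For 5374 of them, the mean over the mature libraries was under 0.5 FPKM, and 5041 of these end in _2. Among the 1834 called unigenes with at least 10 FPKM at both stages, 86.8% had the same direction, 48.6% at 2-fold or more, and 43 were opposite at 2-fold or more. Among the 595 CL contigs called that had at least 10 FPKM at both stages, 92.6% had the same direction, 44.5% at 2-fold or more, and 3 were opposite. The stomach-higher contigs of these were 119, of which 115 had the same direction and 77 at 2-fold or more. The intestine-higher ones were 476, of which 436 and 188 did so. Over all 16931 calls, the order of the tissues was the other way. Of the 5021 higher in the stomach, 61.8% had the same direction at maturity and 24.3% at 2-fold or more. Of the 11910 higher in the intestine, these shares were 77.8% and 38.7%. The libraries of both stages are separate, while the called unigenes were chosen by the values of the immature stage alone. The mature libraries leaned to the intestine as well, with a median log2 ratio of 0.26 over the 46055 unigenes tested there. By size, 10346 of these were at least 2-fold higher in the intestine and 4611 in the stomach. The share with the same direction over all unigenes is not given, so the part of this lean was not tested.

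Of the unigenes with the strongest tissue difference, a large share stood apart at maturity too. Among the 354 that were at least 16-fold higher in the intestine, 268 (75.7%) were at least 2-fold and 160 at least 16-fold higher in it at maturity, 9 were at least 2-fold higher in the stomach and 77 were within 2-fold. Among the 130 of the stomach, 83 (63.8%) were at least 2-fold and 43 at least 16-fold higher in the mature stomach, 5 were opposite and 42 were within 2-fold. Of those within 2-fold, 37 and 19 were under 0.5 FPKM over the mature libraries, as comp32608_c0_seq1_2 was. Over all 46055 unigenes tested at maturity, 10346 were at least 2-fold higher in the intestine and 4611 in the stomach. The shares of 75.7% and 63.8% thus have unlike backgrounds and are not set against each other. By ID, 232 of the 354 and 84 of the 130 end in _2, and 51 and 13 are CL contigs.

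**Figure D4:**
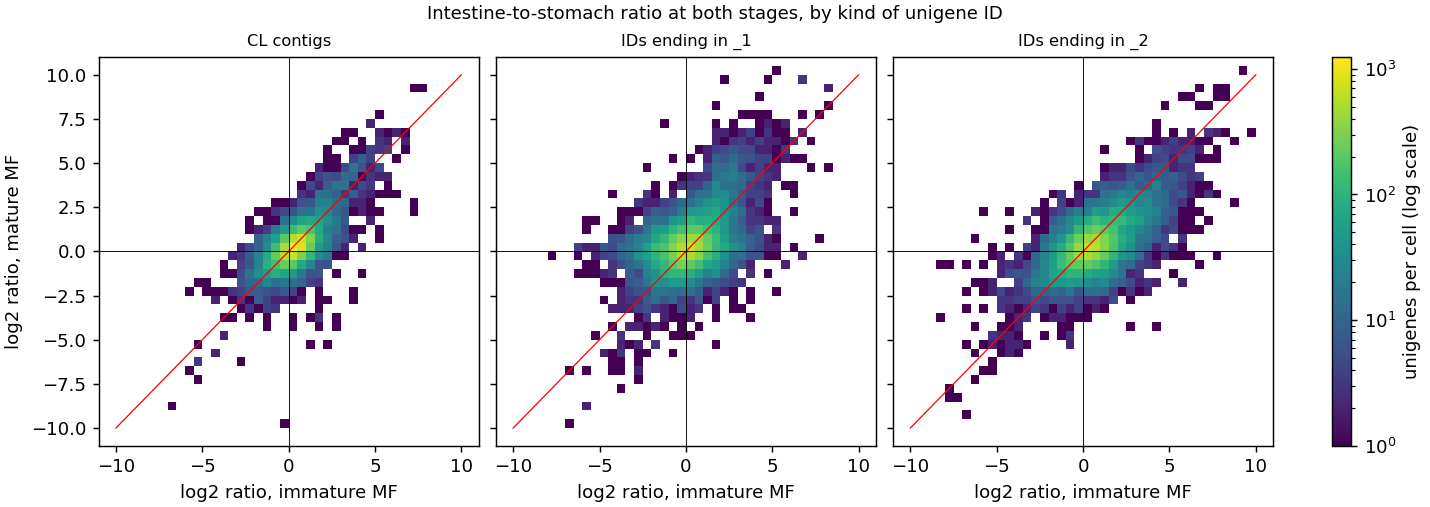
Log2 ratio of intestine to stomach in the mature MF against that in the immature MF, with 0.5 FPKM added, for unigenes of at least 0.5 FPKM at both stages, by kind of ID, with the colour giving unigenes per cell on a log scale and the red line equal ratios. The Pearson correlation across unigenes was 0.69 for 10065 CL contigs, 0.48 for 12801 IDs ending in _1 and 0.63 for 12710 ending in _2.

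Across 5481 unigenes with at least 10 FPKM at both stages, the ratios had a Pearson correlation of 0.77, and of 0.83 over the 2516 CL contigs among them. These are descriptions, and the unigenes of a library share its scaling. Of the 5481, 589 were at least 2-fold higher in the intestine at both stages, 297 in the stomach at both stages, 47 in opposite directions, 896 at the immature stage alone and 507 at the mature stage alone. The median absolute log2 ratio was 0.69 in the immature MF and 0.57 in the mature MF, and 0.59 and 0.49 in the CL contigs. These counts and ratios are as deposited, where the median log2 ratio over all unigenes tested was 0.37 and 0.26. The part of this offset was not tested. Presence at 1 stage alone is not a test of the difference. Tested directly, as the tissue by stage interaction in limma over 12 libraries, the difference passed for 25.3% of 50372 unigenes, and by kind of ID for 15.3% of 10992 CL contigs, 28.5% of 19286 ending in _1 and 27.7% of 20094 ending in _2. The direction went with the suffix: the ratio of intestine to stomach was larger in the immature MF for 2000 and smaller for 3498 of those ending in _1, but larger for 3624 and smaller for 1950 of those ending in _2. With the median of ratios, these were 1973 and 3472, and 3178 and 2325. In the CL contigs, 960 were larger and 718 smaller as deposited, and 834 and 827 with that scaling.

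Set beside the mature MF and the immature DF, the immature MF had a larger share of abundant unigenes that differed between the tissues with FPKM as deposited, an order that for the DF depended on the scaling. At 50 FPKM or more, at least 2-fold differences were found for 42.3% in the immature MF, 31.4% in the mature MF (517 of 1648) and 30.2% in the immature DF (633 of 2097), out of 40.8%, 32.5% and 49.3% of all unigenes tested. With the median of ratios, the shares at 50 FPKM or more were 37.2%, 32.3% and 38.4%, and the DF stood highest. After quantile normalization, they were 37.4%, 31.4% and 30.6%. In the mature MF, 12601 of 46055 unigenes (27.4%) were called with limma. At 0.5 to 2 FPKM, the DF had 53.3% of unigenes higher in the intestine and 5.92% in the stomach, while the immature MF had 27.9% and 14.2%. The assemblies of the DF and MF share no IDs, so the forms were not tested against each other, and neither were these shares between stages.

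**Figure D5:**
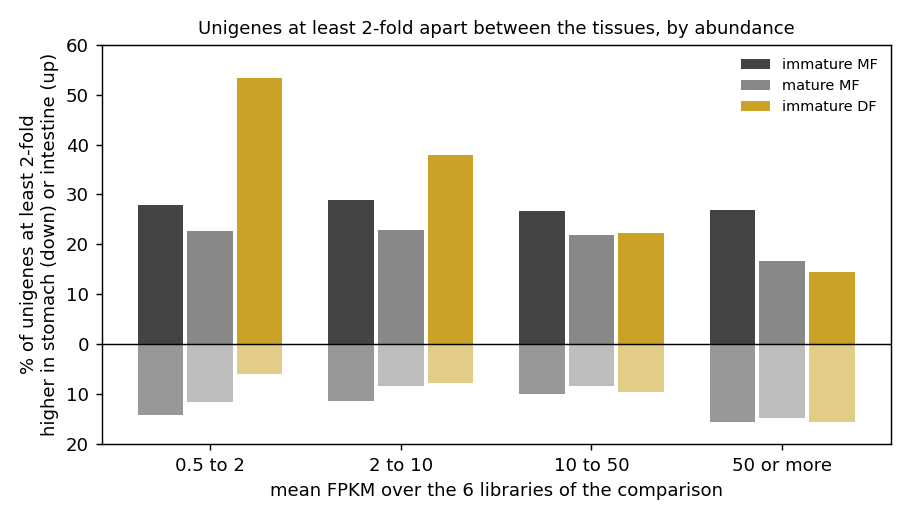
Share (%) of unigenes with group means at least 2-fold higher in the intestine (upward bars) or in the stomach (downward, paler bars) by mean FPKM class in the immature MF, mature MF and immature DF. At 50 FPKM or more, the immature MF has 26.8% upward and 15.5% downward, the mature MF 16.7% and 14.7%, and the immature DF 14.5% and 15.6%, all with FPKM as deposited; with the median of ratios, they have 16.6% and 20.5%, 13.0% and 19.3%, and 8.97% and 29.5%.

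Near the minimum of 0.5 FPKM, the 1524 unigenes just inside (0.5 to 0.55 FPKM) had a median log2 ratio of 0.26 and 40.0% at least 2-fold apart, and the 1593 just outside (0.45 to 0.5 FPKM) 0.30 and 40.4%.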

How the data were processed

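RNA of the intestine and stomach was sequenced as 24 libraries, and 18 of them were used here. After quality trimming, the reads of each form had been joined into a set of unigenes with Trinity, and FPKM per library were deposited by the authors. The sources used here give neither the aligner nor the program behind FPKM nor any version. Groups were taken from the sample titles. As FPKM are not counts, log2(FPKM + 0.5) was fitted with limma 3.58.1 (R 4.3.3), with an intensity trend, no covariate and 2-sided tests, and p-values were adjusted by Benjamini-Hochberg over all unigenes tested. Calls needed an adjusted p no higher than 0.05 together with a log2 change of at least 1 in either direction. Fold changes on this scale understate the change of unigenes with low values. Ratios by size are those of group means with 0.5 FPKM added. The limma step was tested on simulated data, and tables and plots were made in Python 3.11.15.

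The named unigenes were, in each direction, the called unigene with the largest ratio and that with the largest difference in FPKM, among those of at least 10 FPKM with no overlap between tissues. Lists of digestive enzymes, transporters and markers of muscle, cilia, mucus, nerve and blood could not be applied, because no ID is paired with a name. Members, lists and limits were chosen with earlier results of these data known. Alternatives were the pseudocount, the filter, the scaling, the library number as a block, other thresholds, each library left out and merged libraries. Merging replicates 2 and 3, and the other scalings by direction at 50 FPKM or more and by kind of ID, were chosen after the values were seen. The mature DF was not analysed here.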

Additional observations from a re-analysis of the deposited data

Results flagged for a closer look

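The tissue ratio differed between the immature and mature MF, by the interaction in limma, for 12750 of 50372 unigenes, a test that rests on the small spread between libraries. The named unigenes were chosen for their extreme values at the immature stage, so their differences between stages are given as a description. The log2 ratio of intestine to stomach at the immature stage, less that at maturity, was 3.14 for comp67002_c5_seq1_2, whose stomach values are too low for it to be read closely. It was 3.66 for comp55794_c0_seq1_2. For comp32608_c0_seq1_2, it was -9.40, a number whose size is set by the added 0.5 FPKM, because the unigene was near 0 in every group but MUS. For comp71996_c1_seq1_2, it was 0.25. All 4 end in _2, the kind of ID that was lower at maturity in both tissues.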

How the results depend on the processing

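Of 271 values computed under other settings, 248 stayed within the limits set for them and 23 moved. The limits for counts were wide. The unigenes called higher in the intestine, 11910 as deposited and 8334 after quantile normalization, still counted as unmoved. Of the 271 values, 132 came from leaving out 1 library, where the spread between libraries was small, and 0 of these moved. The tissue with more 2-fold unigenes at 50 FPKM or more turned with the scaling: with the median of ratios, the immature MF had 257 higher in the intestine and 317 in the stomach, and quantile normalization gave 282 and 296. In the immature DF, the median of ratios gave 188 and 618. The more frequent direction of the interaction turned too, from 6584 larger and 6166 smaller ratios in the immature MF to 5985 and 6624 with the median of ratios and 6317 and 6494 after quantile normalization. The minimum of 5 FPKM tests fewer unigenes, and gave 5103 called in the immature MF (3693 higher in the intestine, 1410 in the stomach), 4245 in the mature MF (3038 and 1207), 3917 for the interaction (2124 with a larger and 1793 with a smaller ratio in the immature MF), 2210 called unigenes that kept their direction at 2-fold at maturity and 20 shared ID numbers with calls in both directions. Quantile normalization gave 7733 higher in the stomach in the immature MF and 5877 in the mature MF, where 3560 were found as deposited; the cause was not tested. With under 0.1 FPKM in place of 0, 1486 unigenes were found in the stomach alone. The share of MUI in unigenes higher in the intestine was 41.9% by size alone, 41.8% with a pseudocount of 0.1 and 40.7% with 1, and that of MUS in unigenes higher in the stomach 32.1%, 31.8% and 31.3%. Leaving out each library gave 15833 to 16321 calls in the immature MF. The library number as a block gave 16670. Deviations of same-numbered libraries of the tissues had correlations of 0.0024 to 0.0042, against -0.0060 to 0.0021 for other numbers. Each of the 6 libraries correlated best with its own number, by these small margins, and as no pair reached 0.1 the numbers were not used as pairs. Unadjusted P gave 18028 calls. As mapped reads per library and unigene lengths were not used, no limit of detection is given for low values.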
